A study of Mus musculus with 2 samples.

Results

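The 9 genes of peroxisomal fatty acid oxidation followed here in mouse liver all had lower deposited FPKM in the adiponectin knockout library. So did 66.9% of the 11985 genes that reached 1 FPKM in either library. The 9 genes are Abcd2, Abcd3, Ehhadh, Hsd17b4, Acaa1a, Acaa1b, Decr2, Crot and Pex11a. They were taken by symbol from the deposited expression tables, where each of the 9 had 1 row among 13326 gene symbols. The study sequenced liver messenger RNA of male C57BL/6J mice aged 12 weeks, fasted overnight. The groups were wild type and Adipoq-/-, which lack adiponectin, a hormone secreted by fat cells. RNA of 9 to 10 mice of a genotype was pooled into 1 library, so there were 2 libraries and no replicates. Every difference below is between those libraries, with no error, test or p-value. Fasting, sex, age and strain were shared by both groups. The targeted gene Adipoq is not reported here and gives no check of the genotype labels.

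Peroxisomes shorten fatty acids that mitochondria handle poorly, such as very long-chain, branched and dicarboxylic acids, and they make hydrogen peroxide in the first step. Transporters of the ABCD family carry acyl-CoA into the organelle, acyl-CoA oxidases start each cycle, a bifunctional enzyme performs the middle steps, and a thiolase cuts off acetyl-CoA. Shortened chains leave partly as carnitine esters for mitochondria. In rodent liver many of these genes are known targets of PPAR alpha, the fatty acid receptor that responds to fasting and to fibrate drugs.

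The thiolase genes Acaa1a and Acaa1b lie on the same chromosome and are close copies. Their longest reading frames, of 1275 bases each in the GENCODE M21 transcripts, differed at 44 bases (96.5% identity). The stretch of 60 bases with the most differences, 11, covers bases 259 to 318 of both frames and is shown because reads must be told apart by such positions. Capitals mark the bases that differ.
Acaa1a: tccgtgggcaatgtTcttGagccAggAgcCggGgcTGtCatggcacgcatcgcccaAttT
Acaa1b: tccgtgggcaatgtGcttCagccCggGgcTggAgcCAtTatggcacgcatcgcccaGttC
Of the windows of 36 bases in the Acaa1b transcript, 54.0% also occurred in transcripts of other genes, most of them from Acaa1a, and in Acaa1a the share was 42.7%. How the authors' program divided such reads is not given in the sources used here, so the split between the thiolases is uncertain. The same share was 7.22% for Decr2, 4.42% for Crot and 1.29% for Abcd2. It was 0 for Abcd3, Ehhadh, Hsd17b4 and Pex11a.

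RefSeq promoters (build GRCm38.p6) were matched for 7 of the 9 genes, with Abcd2 and Hsd17b4 unmatched. The 250 bases before the start are shown for the thiolase genes and Ehhadh, the 3 members with the lowest ratios among those matched. Capitals mark CCAAT and, where it lies on the opposite strand, ATTGG.
Acaa1b (chr9:119157094-119157343, minus strand): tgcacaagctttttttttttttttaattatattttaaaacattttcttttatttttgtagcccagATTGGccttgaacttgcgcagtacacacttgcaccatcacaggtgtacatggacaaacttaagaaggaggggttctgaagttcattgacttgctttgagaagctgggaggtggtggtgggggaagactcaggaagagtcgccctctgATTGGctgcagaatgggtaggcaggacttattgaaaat
Acaa1a (chr9:119341044-119341293, plus strand): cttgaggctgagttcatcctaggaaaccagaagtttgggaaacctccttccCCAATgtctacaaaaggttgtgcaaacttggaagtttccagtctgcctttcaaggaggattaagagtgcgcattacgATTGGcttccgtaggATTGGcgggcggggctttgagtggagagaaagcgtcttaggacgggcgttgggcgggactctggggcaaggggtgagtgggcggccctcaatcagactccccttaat
Ehhadh (chr16:21787835-21788084, minus strand): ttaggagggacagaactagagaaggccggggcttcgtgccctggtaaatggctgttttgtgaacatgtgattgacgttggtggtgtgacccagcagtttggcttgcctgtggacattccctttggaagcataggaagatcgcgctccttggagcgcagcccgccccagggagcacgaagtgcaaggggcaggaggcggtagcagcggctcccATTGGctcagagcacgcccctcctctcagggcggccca
The letters CCAAT, searched on both strands, occurred 2 times before Acaa1b, 3 times before Acaa1a and once before Ehhadh. They were found in 4 of the 8 promoter windows of members (Abcd3 has an additional start) and in 33.8% of all 32851 windows of this length. At least 2 matches were in 10.1% of all windows and at least 3 in 2.79%. GGGCGG, part of the GC box, occurred 3 times before Acaa1a, and 2 times each before Ehhadh, Crot and Decr2. It was not found before Acaa1b. At least 1 match was in 32.7% of all windows, at least 2 in 16.7% and at least 3 in 8.47%. The direct repeat AGGTCANAGGTCA, the idealised site for PPAR alpha with its partner RXR, was in no member window, and in 11 windows of all genes (0.0335%). Its single unit AGGTCA was in no member window either, against 14.0% of all windows. TATAAA was in no member window and in 12.4% of all windows. The repeat contains its unit, so those matches overlap. The matches describe these windows only.

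The deposited unit is FPKM, fragments scaled to transcript length and library size, which allows levels of different genes to be compared within a library. Differences are given as a relative log2 ratio, log2 of knockout over wild type after adding 1 FPKM to each, minus the median of that ratio over the 11985 genes that reached 1 FPKM in either library. That median was -0.15. Lower and higher refer to this relative scale unless the deposited FPKM are named. A fold given after a pair of FPKM values is their ratio as deposited, without the added 1 FPKM. Adding 1 FPKM understates differences of low genes.

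Summed over the 9 genes, the level was 1989.9 FPKM in the wild-type and 1195 FPKM in the knockout library, which is 1.66-fold lower as deposited. Each of the 9 was lower as deposited, and so were 66.9% of all genes. In bulk RNA, fewer hepatocytes and less RNA per hepatocyte cannot be told apart. The sum was 0.249% of all FPKM in the wild-type library and 0.134% in the knockout library. All 9 lay below the all-gene median, as did 50% of all genes and 29.5% of the 1782 genes averaging 50 FPKM or more. Their median relative log2 ratio was -0.50, with single values from -0.94 to -0.20. At least 1.5-fold lower on the relative scale were 4 of 9 members, Acaa1b, Ehhadh, Abcd2 and Acaa1a, against 2.61% of all genes and 1.57% of genes averaging 50 FPKM or more. At least 2-fold lower on the deposited values, with 1 FPKM added, was 1 member, Acaa1b, against 0.759% of all genes. No member was at least 1.5-fold higher, while 6.73% of all genes and 15.3% of those averaging 50 FPKM or more were, and none was 2-fold higher on the deposited values (0.459% of all genes).

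**Figure D1:**
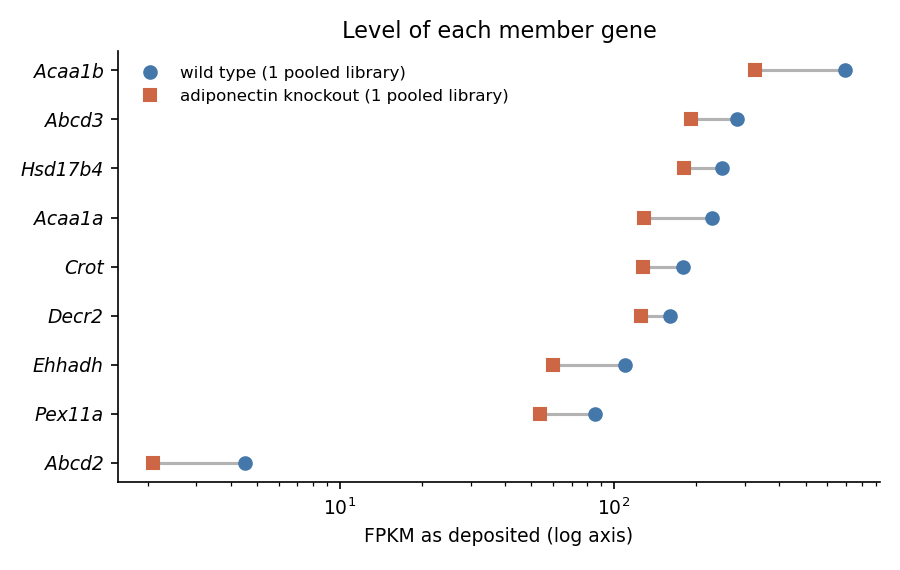
FPKM of the 9 member genes in the wild-type (circles) and knockout (squares) library on a log axis, 1 pooled library each, with a grey line joining the values of a gene. Every knockout value lies to the left of the wild-type value, from Acaa1b at 697 and 328 FPKM down to Abcd2 at 4.52 and 2.08 FPKM, and the order of the genes is the same in both libraries.

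The order of levels was the same in both libraries: Acaa1b, Abcd3, Hsd17b4, Acaa1a, Crot, Decr2, Ehhadh, Pex11a and Abcd2. Without replicates there is no spread by which neighbours in this order could be separated. In the knockout library Acaa1a, Crot and Decr2 lay within a few FPKM of each other, at 128, 127 and 125 FPKM, whereas in wild type they were spread from 228 to 159.9 FPKM. Acaa1b made up 35.0% of the summed member FPKM in the wild-type library and 27.4% in the knockout library, the largest shift of share among the 9.

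Import was represented by a pair of transporters of very different abundance. Abcd3, an abundant acyl-CoA transporter of the liver peroxisome membrane, was 281 FPKM in the wild-type and 191 FPKM in the knockout library, 1.47-fold lower as deposited (relative log2 ratio -0.40). Abcd2, a transporter of very long-chain acyl-CoA, was 4.52 and 2.08 FPKM. Its deposited ratio of 2.17-fold was the largest of the 9 genes, but its relative log2 ratio of -0.69 is reduced by the added 1 FPKM. Abcd3 was 62.1 times as abundant as Abcd2 in wild type and 91.8 times in the knockout library.

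The bifunctional enzymes differed from each other in size of difference. Ehhadh, the L-bifunctional enzyme used for dicarboxylic acids, was 109 FPKM in wild type and 59.8 FPKM in the knockout library, 1.83-fold lower (-0.71). Hsd17b4, the D-bifunctional enzyme that handles branched acids and bile acid precursors, was 248 and 180.1 FPKM, 1.37-fold lower (-0.31). Hsd17b4 was thus 2.26 times as abundant as Ehhadh in wild type and 3.01 times in the knockout library. Such a ratio within a library does not depend on how the libraries were scaled to each other. It can still carry the trend with transcript length described below, where paired genes differ in length.

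Acaa1b had the lowest relative ratio of the 9. It was 697 FPKM in wild type and 328 FPKM in the knockout library, 2.13-fold lower (-0.94), and its rank by level among all genes was 139 in the wild-type library and 325 in the knockout library. Acaa1a was 228 and 128 FPKM, 1.78-fold lower (-0.67). Acaa1b was 3.06 times as abundant as Acaa1a in wild type and 2.56 times in the knockout library, a difference that shared reads make uncertain. Their sum, which depends less on how reads were divided between them, was 925 FPKM in wild type and 456 FPKM in the knockout library, 2.03-fold lower (-0.87). It is not free of shared reads, since some windows of both transcripts also occurred in genes other than the partner.

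The remaining members had smaller differences than Acaa1b, Ehhadh, Abcd2 and Acaa1a. Decr2, the reductase that prepares polyunsaturated chains for the cycle, was 159.9 and 125 FPKM, 1.27-fold lower (-0.20), the smallest difference of the 9. Crot, which converts shortened acyl-CoA into carnitine esters for export, was 178 and 127 FPKM, 1.40-fold lower (-0.33). Pex11a, which elongates the peroxisome membrane before division and is the inducible form of its family, was 85.2 and 53.8 FPKM, 1.58-fold lower (-0.50).

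Across all genes the ratio moved with level and with transcript length, so each member was set beside its neighbours on both. The 1782 genes averaging 50 FPKM or more had a median relative ratio of 0.22, and 8 of the 9 members were at or above that level in both libraries. Of the 500 genes nearest in mean FPKM, 2 had a ratio as low as that of Acaa1b, 2 as low as Acaa1a, 3 as low as Ehhadh and 6 as low as Abcd2. The number was 11 for Pex11a, 13 for Abcd3, 24 for Crot, 34 for Hsd17b4 and 57 for Decr2. Decr2 thus stood closest to genes of its own level, and the thiolases farthest from theirs.

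Longer transcripts had lower ratios (Spearman rho -0.44 across 11571 genes, which are not independent replicates and share the libraries). With genes cut by transcript length into 10 groups of equal size, the group of shortest transcripts had a median ratio of 0.40 and the group of longest of -0.12. Of the 500 genes nearest in transcript length, 2 had a ratio as low as that of Acaa1b, 5 as low as Ehhadh, 6 as low as Abcd2 and 8 as low as Acaa1a. There were 17 for Pex11a, 54 for Abcd3, 72 each for Hsd17b4 and Crot, and 120.0 for Decr2. After subtraction of the median of genes of like length, all 9 members remained below 0, as did 49.7% of genes with a known length, with a member median of -0.46. The count at least 1.5-fold lower was then 3 of 9, against 2.73%, because Abcd2 (-0.58) no longer reached that size.

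**Figure D2:**
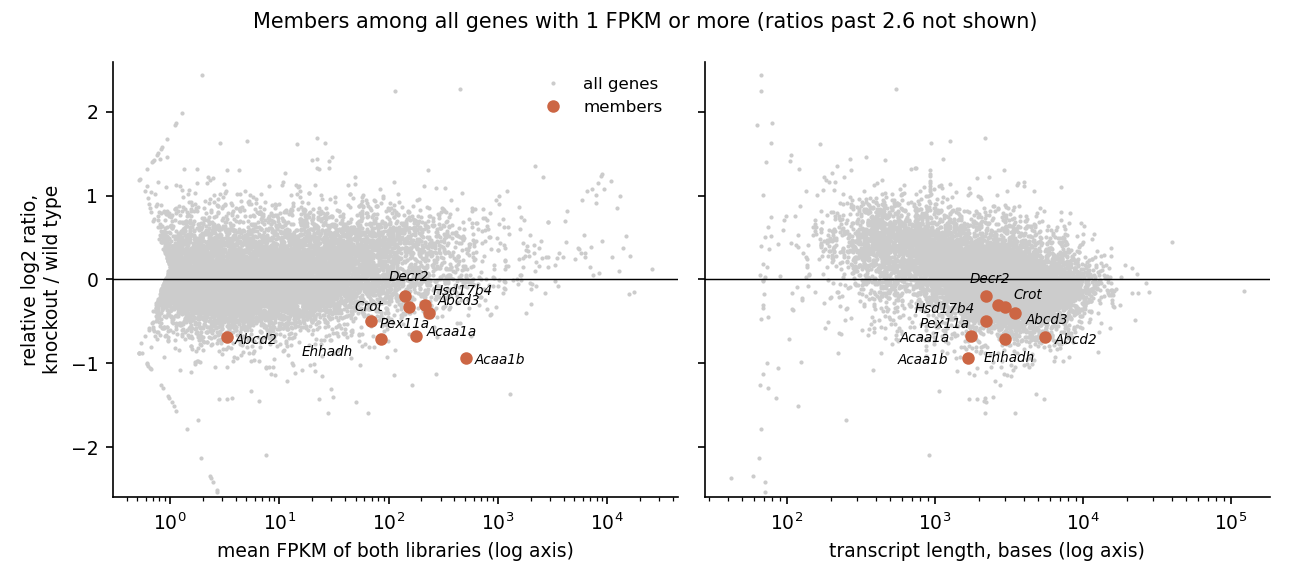
Relative log2 ratio of knockout to wild type (vertical axis, 0 is the all-gene median) against mean FPKM (left) and transcript length in bases (right), both on log axes, for genes that reached 1 FPKM in a library (grey) and the 9 members (orange). The members lie below 0 in both panels, from -0.94 for Acaa1b to -0.20 for Decr2, and 7 genes with ratios beyond 2.6 in size are not drawn.

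The rest of the peroxisomal lipid pathway was nearer to the all-gene median than the 9 members. Of 21 further enzymes and transporters at 1 FPKM or more, 12 lay below the all-gene median, and their own median was -0.08. All 9 members lay below that value. The members and the comparison lists were chosen with earlier results of these data known, so contrasts between them are not independent evidence. Crat, the carnitine acetyltransferase that exports acetyl units, was the exception at 29.0 FPKM in wild type and 12.4 FPKM in the knockout library (-1.01), lower than any member. Acbd5, a membrane protein that tethers peroxisomes to the endoplasmic reticulum, was 54.9 and 37.1 FPKM (-0.40), and Gnpat, which starts ether lipid synthesis, was 37.4 and 26.6 FPKM (-0.33). Nudt7, a peroxisomal hydrolase of coenzyme A, stood at the opposite end at 689 and 945 FPKM (0.61). Acot8, a peroxisomal thioesterase, was 27.3 and 28.1 FPKM (0.19). Scp2, the most abundant of the list, encodes a sterol carrier protein and a thiolase for branched chains, and was 3007 and 2424 FPKM (-0.16). Crat and Nudt7 were the 2 genes of the list past 1.5-fold, 1 in each direction.

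Export enzymes therefore differed among themselves. Crot was 6.13 times as abundant as Crat in wild type and 10.2 times in the knockout library. Among the thiolases, Acaa1b was 0.232 times the level of Scp2 in wild type and 0.135 times in the knockout library.

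Genes for the organelle itself lay nearer to the all-gene median than the 9 members. The 16 peroxins and matrix proteases measured had a median of -0.08, and none was past 1.5-fold in either direction. The lowest were the protease Lonp2 (242 and 168 FPKM, -0.37), the ubiquitin ligase subunit Pex10 (3.06 and 1.88 FPKM, -0.35) and the import receptor Pex5 (52.0 and 37.4 FPKM, -0.31). The highest was the import ATPase subunit Pex6 (13.6 and 16.1 FPKM, 0.37). Pex11a was 2.48 times as abundant as its relative Pex11g, listed as Pex11c, in wild type and 1.60 times in the knockout library. Peroxisomal enzymes outside lipid metabolism had a median of 0.08 over 8 genes, and its sign changed on the deposited scale (-0.07). Catalase (Cat), which removes hydrogen peroxide, was 934 and 658 FPKM (-0.35), urate oxidase (Uox) 1243 and 1004 FPKM (-0.16), and the sarcosine oxidase Pipox 137 and 115 FPKM (-0.10). Prdx5, another peroxidase, was 411 and 503 FPKM (0.44) and the membrane protein Pxmp2 225 and 257 FPKM (0.34).

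**Figure D3:**
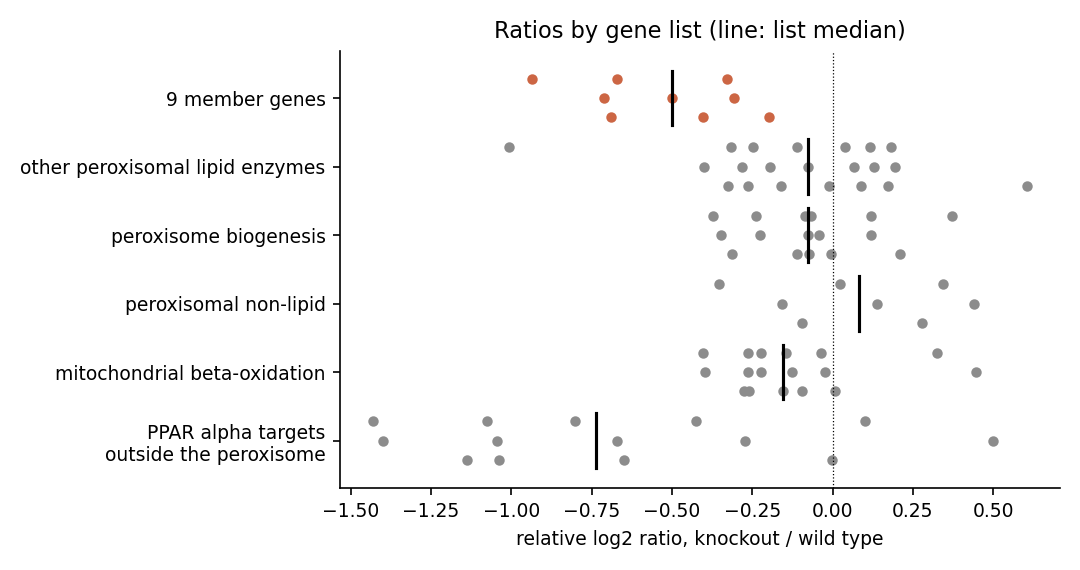
Relative log2 ratio of knockout to wild type for each gene (points, spread vertically for legibility) in the 9 members (orange) and 5 comparison lists (grey), with the list median as a black line. The member median is -0.50, compared with -0.08 for other peroxisomal lipid enzymes, -0.15 for mitochondrial beta-oxidation and -0.74 for PPAR alpha targets outside the peroxisome.

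Mitochondria run a parallel set of reactions on shorter chains. Of 17 mitochondrial genes, 14 lay below the all-gene median, their median was -0.15, and none was past 1.5-fold. The lowest were the medium-chain dehydrogenase Acadm (110.3 and 74.8 FPKM, -0.40), the dehydrogenase Hadh (162 and 110.3 FPKM, -0.40) and the carnitine transferase Cpt2 (54.3 and 40.1 FPKM, -0.28). The hydratase Echs1 (369 and 453 FPKM, 0.45) and the electron carrier subunit Etfb (364 and 411 FPKM, 0.33) were the highest. The most abundant, the thiolase Acaa2, was 583 and 513 FPKM (-0.04). The 5 members Acaa1b, Ehhadh, Abcd2, Acaa1a and Pex11a had ratios below the lowest mitochondrial gene. The remaining members lay within the mitochondrial range. Of the 17 mitochondrial genes, 8 had ratios at or below that of Decr2, the highest member, so the lists overlapped.

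Members were also set beside a mitochondrial gene of related function, though not always of the same step. The level of Acaa1b relative to Acaa2 was 1.19 in the wild-type library and 0.639 in the knockout library, so the more abundant thiolase of the pair was peroxisomal in wild type and mitochondrial in the knockout library. Ehhadh relative to Hadha, a subunit of the mitochondrial trifunctional protein, was 0.647 and 0.437. Hsd17b4 relative to Hadha was 1.46 and 1.32. Decr2 relative to its mitochondrial counterpart Decr1 was 2.61 and 2.73, and Crot relative to Cpt2 was 3.28 and 3.18. Abcd3 relative to Slc25a20, the carnitine carrier of the mitochondrial membrane, was 4.76 and 3.99. The ratio within a library was thus lower in knockout for Acaa1b, Acaa1a, Ehhadh, Abcd3 and Hsd17b4, by less for the last 2. It was nearly equal in the libraries for Decr2 and Crot. None of these ratios was corrected for transcript length, which differed within pairs such as Abcd3 (3489 bases) and Slc25a20 (1783 bases).

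**Figure D4:**
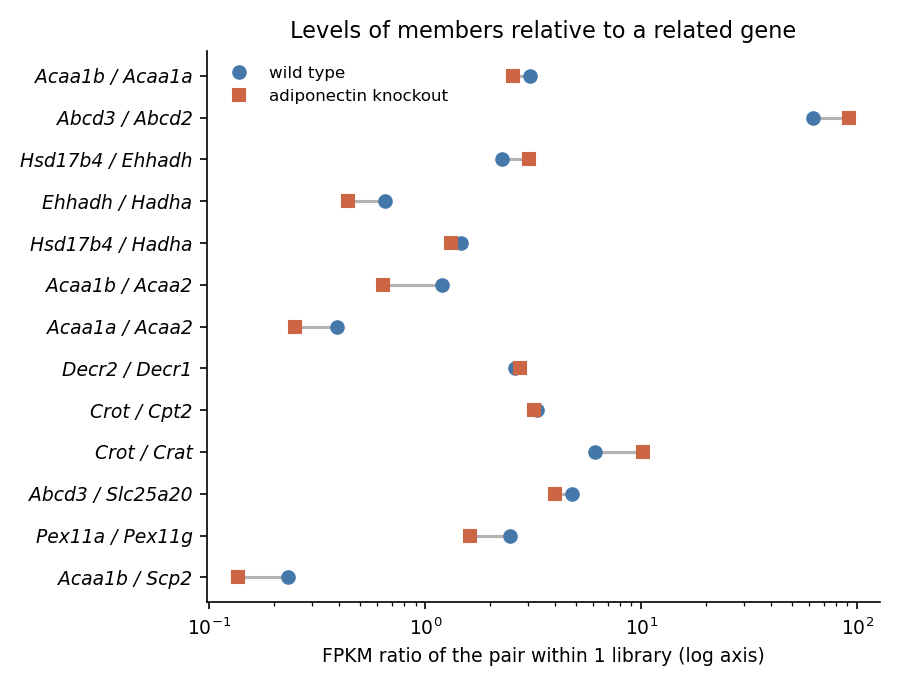
FPKM of the first gene divided by FPKM of the second within the wild-type (circles) and the knockout (squares) library, on a log axis, for 13 pairs. Acaa1b over Acaa2 goes from 1.19 in wild type to 0.639 in the knockout library, while Decr2 over Decr1 (2.61 and 2.73) and Crot over Cpt2 (3.28 and 3.18) stay close.

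PPAR alpha targets outside the peroxisome were lower by more than the members. Of 14 such genes, 9 were at least 1.5-fold lower and 12 were below the all-gene median, and the list median was -0.74. Several of these genes were already known to be low in these libraries when the list was written, so the list is not independent evidence. The lowest were the lipid droplet gene Cidec (4.73 and 0.913 FPKM, -1.43), the omega-hydroxylase Cyp4a14 (46.5 and 15.2 FPKM, -1.40) and the aldehyde dehydrogenase Aldh3a2 (161 and 65.4 FPKM, -1.14). Angptl4, an inhibitor of lipoprotein lipase, was 7.45 and 9.75 FPKM (0.50), and the fatty acid binding protein Fabp1 was 13092 and 12633 FPKM (0.10). Ppara was 36.5 and 31.7 FPKM (-0.05) and its partner Rxra 50.5 and 41.1 FPKM (-0.14). The coactivator Ppargc1a was under 1 FPKM in both, at 0.636 and 0.335.

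Markers of the tissue were present. Of 6 hepatocyte markers, 3 lay below the all-gene median, and their median relative log2 ratio was near 0 (-0.003). As deposited, 5 of the 6 were lower in the knockout library, and Apoa1 was higher (6039 and 6541 FPKM). Their summed level was 31676 FPKM in the wild-type library and 28510.2 in the knockout library. Albumin alone was lower by more FPKM than the whole sum was (Alb, 17522 and 14031 FPKM). Without it the sums were 14154 and 14479 FPKM, which include the higher Apoa1. Of 7 Kupffer cell markers, 6 lay above the all-gene median but 3 were lower as deposited. They summed to 206 and 251 FPKM, or to 133 and 135 FPKM without lysozyme (Lyz2, 72.5 and 116 FPKM). Marco had the highest relative log2 ratio of the 7 (1.26 and 3.72 FPKM, 1.21), but at its low level it adds little to these sums. The 4 endothelial markers summed to 46.3 and 49.8 FPKM, a difference carried by Clec4g (38.2 and 42.9 FPKM). The other endothelial markers, 3 of the 4, were lower as deposited. Of 5 adipocyte markers 2 were analysed, Cfd at 13.3 and 2.01 FPKM and Fabp4 at 9.61 and 10.95 FPKM, and no marker analysed was listed at 0. The part of these cells in the members' values was not tested.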

How the data were processed

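Liver RNA was measured in 2 libraries, 1 pooled library per genotype, assigned by the genotype label. The values are FPKM deposited by the authors, with 1 value for a gene in each library. Builds mm9 and NCBIM37 and the programs TopHat and Cuffdiff are named per the submitters' processing notes. The sources used here give no versions, annotation or row filter. The tables hold 13352 rows, and 26 symbols had 2 rows, of which the one of higher mean FPKM was used. Counts were not used and depth is unknown. Among 1298 genes above 0 and below 1 FPKM in each library, no more than 5 shared a log2 ratio to 3 decimals, so whole reads were not recovered. Summed FPKM were 798231 in wild type and 892016 in knockout.

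Ratios were computed in Python 3.11.15 with pandas 2.3.3, with a pseudocount of 1 FPKM and a minimum of 1 FPKM in at least 1 library. Transcript lengths are those of the longest coding transcript in GENCODE M21, matched for 96.5% of genes by symbol or synonym, and the length correction is a running median over 501 genes. On simulated ratios with known shifts and a length trend, the correction recovered the shifts. The simulated trend was smooth and the noise small, so this checks the computation and not its fit to these libraries. Reading frames were aligned with Biopython 1.88. RefSeq promoters and transcripts are of build GRCm38, so no coordinate was joined to the mm9 values.

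No test was possible with 1 library per genotype. The members and lists were chosen with earlier results of these data known. Named genes are the 9 members, of each list the 3 lowest, 2 highest and most abundant, Ppara, Rxra and Ppargc1a, and the 3 genes nearest to the member farthest from 0. The genes paired with members within a library, and the markers named, were chosen after their values were seen. As alternatives, the pseudocount was 0.1 or 0.5 FPKM, the minimum was 5 FPKM or absent, and there were 3 scalings without centring and the length correction. Summing the thiolase pair was added after seeing the data. Some listed genes were not analysed here, and some that the naming rule takes are not reported here.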

Additional observations from a re-analysis of the deposited data

How the results depend on the processing

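Every member lay below 0 under each of its alternatives (72 of 72 values), and 51 of these moved by at most 0.1 on the log2 scale. These values come from the same 2 libraries and are not independent. On the 3 scales without centring, the all-gene median was itself below 0. It was -0.28 at equal sums, -0.09 with upper quartile scaling and -0.15 as deposited, where 66.9% of all genes were below 0. The range was -1.25 to -0.87 for Acaa1b, -1.02 to -0.62 for Ehhadh and -0.51 to -0.16 for Decr2. With FPKM rescaled to equal sums and no centring, the member median was -0.81, and 8 members were at least 1.5-fold lower, against 12.9% of all genes on that scale, where the all-gene median was -0.28. On that scale 2 members were at least 2-fold lower, against 1.26% of all genes. The medians were then -0.34 for other peroxisomal lipid enzymes, -0.37 for peroxisome biogenesis, -0.23 for peroxisomal genes outside lipid metabolism, which reversed its sign, -0.46 for mitochondrial beta-oxidation and -1.03 for PPAR alpha targets outside the peroxisome. On FPKM as deposited without centring these medians were -0.65 for the members and, in the same order, -0.23, -0.23, -0.07 (a reversed sign, to 3 digits -0.0703), -0.31 and -0.89. These shifts follow from the construction of the scales, which move nearly every ratio by the same amount. With a pseudocount of 0.1 FPKM, 2 members, Abcd2 and Acaa1b, were at least 2-fold lower, against 2.53% of all genes at that pseudocount. With a minimum of 5 FPKM, Abcd2 gave no value. With the thiolase pair summed, the member median was -0.45 and 3 members were at least 1.5-fold lower, against 2.6% of all genes. No paired analysis was possible because each genotype has 1 library. Leaving out a library was not possible for the same reason. Depth limits every value to an unknown degree, above all Abcd2, the only member under 50 FPKM.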

Other observations

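By level and ratio, the genes nearest to Acaa1b over the 2 libraries were Plin2, Aldh1a1 and Bhmt, by distance on log2 FPKM in both. Plin2, a coat protein of lipid droplets, was nearest at 722 FPKM in wild type and 408 FPKM in the knockout library (distance 0.32, relative log2 ratio -0.67). Aldh1a1, a retinal dehydrogenase, was 559 and 350.4 FPKM (distance 0.33, -0.52), and Bhmt, a methyltransferase of the methionine cycle, 633 and 426 FPKM (distance 0.40, -0.42). With 2 points per gene this likeness says only that the levels in both libraries were close.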
